A study of Mus musculus with 8 samples.

Results

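The genes described here are 9 that are commonly used as markers of endothelial cells and of the vessel wall: the receptors Flt1, Kdr, Tek and Cxcr4, the surface and junction proteins Pecam1, Cdh5, Esam and Mcam, and the anticoagulant receptor Thbd. They were chosen by name, as the rows of the deposited mouse count table whose RefSeq transcript belongs to one of them, and the row with the highest total was taken for each gene. They make up 9 of the 23483 genes in the table, and all 9 passed the filter on low counts. The study measured poly(A) RNA in 8 libraries from C57BL/6 mouse cells kept in 5.5 mM glucose, with 2 libraries in each of 4 groups. The first group was mouse embryonic stem cells (mESC) kept with LIF, the cytokine that holds them undifferentiated. The other groups were Sca1 cells, derived from stem cells that had spent 4 days on gelatin without LIF. These were pulled out with magnetic beads against Sca1, a surface antigen of many stem and progenitor cells, to a purity of over 80% by flow cytometry, and then grown on without LIF for 2 to 8 population doublings. One Sca1 group was untreated. The NTC group carried a lentiviral non-target shRNA control, and the Set7 knock-down group a lentiviral shRNA against Set7, a lysine methyltransferase encoded by Setd7; both were selected in puromycin at 1 µg/ml for at least a week. No group is labelled as taken through smooth muscle differentiation, the later step that the series is about. The labels do not say whether the libraries of a group came from separate cultures, so p-values measure only the spread between these libraries. For each gene, that spread was estimated over all 4 groups together.

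Endothelial cells line blood vessels. Vascular endothelial growth factor (VEGF) signals to them mainly through the kinase receptor encoded by Kdr, while the receptor encoded by Flt1 binds the same ligand tightly, signals weakly and acts in part as a decoy; angiopoietins signal through Tek (Tie2). VE-cadherin, the product of Cdh5, and the immunoglobulin-family proteins encoded by Pecam1 and Esam hold neighbouring cells together. None of these roles makes each gene exclusive to endothelium: Pecam1 is also made by undifferentiated mouse embryonic stem cells, Flt1 by trophoblast, and Mcam by pericytes and smooth muscle.

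The libraries held 3354828 to 6788049 counts over all transcripts. Levels are given as CPM, counts scaled to a common library size by the trimmed mean of M-values (TMM). Setd7 had 11.2 and 16.5 CPM in mESC, 76.2 and 66.1 in untreated Sca1 cells, 60.6 and 66.5 in NTC cells, and 14.0 and 10.7 in knock-down cells, so the knock-down libraries lay near the stem cells for the targeted gene. Ly6a, which encodes the Sca1 antigen, was at 4.41 to 12.9 CPM in untreated Sca1 cells and 5.71 to 9.82 in mESC, and these ranges overlapped. The 45S ribosomal RNA precursor took 8.63% of the counts of mESC replicate 2 and 8.97% of those of untreated replicate 2, against 0.289 to 1.17% in the other libraries. Those 2 libraries share a number in their descriptions, and results were also computed without them. With that RNA left out, chi-square per degree of freedom between replicates was 20.2 in mESC and 12.9 in untreated cells. It was 1.49 in NTC and 1.84 in knock-down cells, and larger values mean replicates that differ more beyond counting noise. The tests pooled the spread of all groups, so shares of genes called are not on an equal footing between comparisons.

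Of the 9 genes, 7 differed between untreated Sca1 cells and mESC, with 3 higher (Flt1, Thbd, Cxcr4) and 4 lower (Pecam1, Esam, Mcam, Tek), by edgeR's quasi-likelihood test with a Benjamini-Hochberg adjusted p under 0.05. Over the 13966 genes tested, 35.5% were called in that comparison, 18.7% as higher and 16.8% as lower. In the Set7 knock-down 4 genes were lower than in NTC cells (Flt1, Thbd, Mcam, Cxcr4), where 14.3% of all genes were called, 10.1% as lower. In the main fit of all 4 groups, none of the 9 was called higher there by edgeR, and none was by DESeq2. Of the 9, 1, Esam, was higher at an unadjusted p under 0.05 in the main fit. The absence of a call depended on the setting, as edgeR called Esam higher with only the knock-down and NTC libraries in the fit. Of all genes, 4.25% were called higher in the main fit. In NTC cells 4 genes were higher than in untreated Sca1 cells (Flt1, Mcam, Pecam1, Esam), where 4.98% of all genes were called, 3.88% as higher. None was called lower by edgeR or DESeq2, or had a lower value at an unadjusted p under 0.05, and the background of lower calls was 1.1%. The median log2 fold change of the 9 genes was -1.33 in untreated cells against mESC, -0.75 in the knock-down against NTC and 0.91 in NTC against untreated cells, beside -0.01, -0.00 and 0.01 over all genes tested. Groups of 2 libraries often do not overlap: this held for 62.7% of all genes in untreated cells against mESC, 64% in the knock-down against NTC and 53.4% in NTC against untreated cells. The NTC libraries enter both of the last comparisons and the untreated libraries enter both comparisons that involve them. In bulk RNA, fewer cells of a type and less RNA per cell cannot be told apart.

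**Figure D1:**
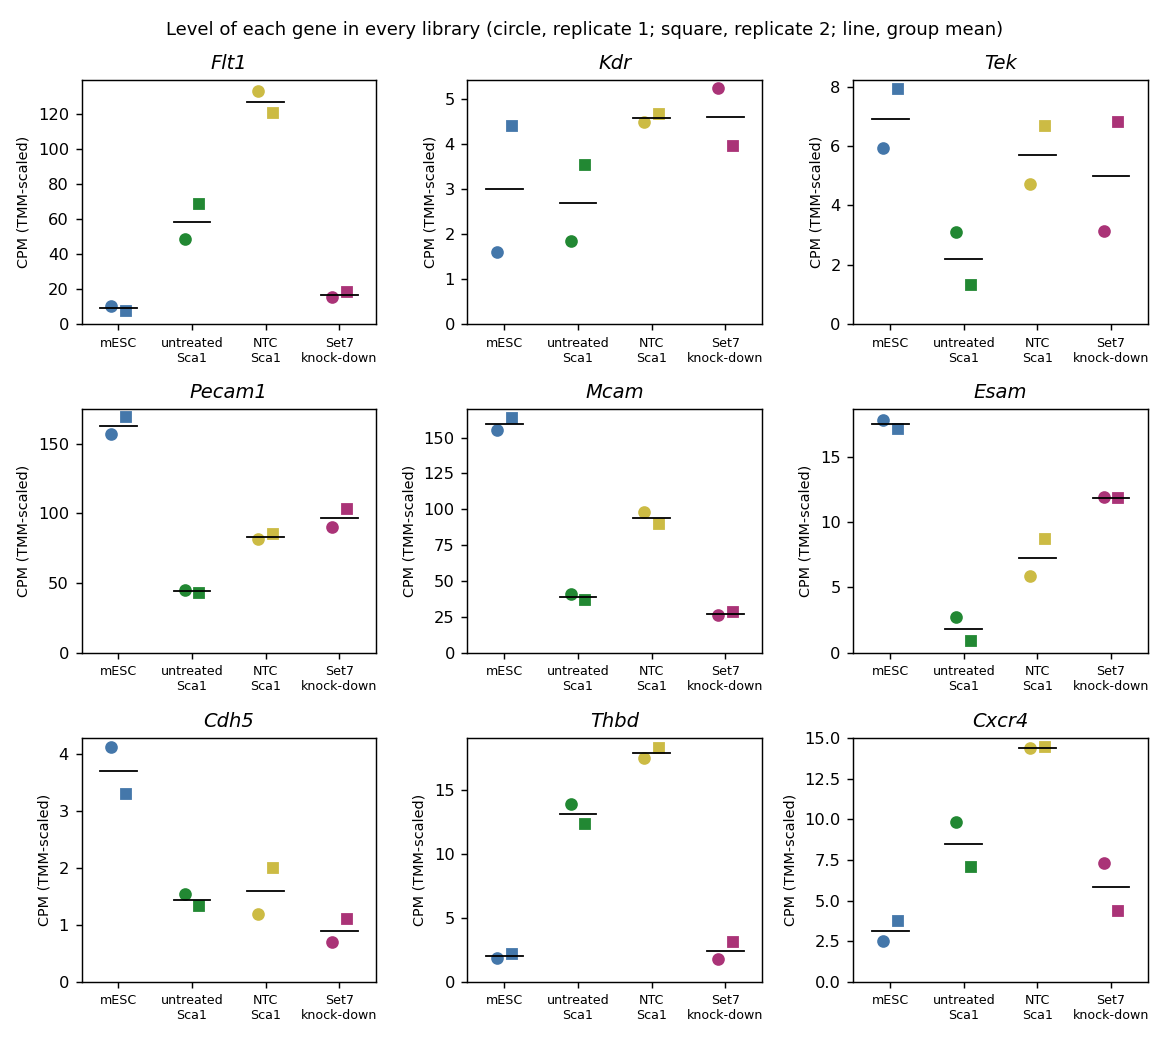
Level of each of the 9 genes in every library, in TMM-scaled CPM on a linear axis that starts at 0 and differs between panels; circles are replicate 1, squares replicate 2 and the black line is the group mean. Flt1 reached 133 and 121 CPM in NTC cells and 15.4 and 18.0 in the knock-down, while Pecam1 and Esam were highest in mESC and lowest in untreated Sca1 cells.

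Upstream sequence from RefSeq (GRCm38.p6) was found for 5 of the 9 genes: Flt1, Kdr, Tek, Mcam and Cxcr4. The 250 bases before the start site are printed for Flt1 and Cxcr4, which were lower in the knock-down, and for Kdr, which was not called in any of the 6 pairs of groups. Capitals mark TGACGTCA (the palindromic cAMP response element), GGGCGG or its complement (the GC box) and TATAAA or its complement (the TATA box).
Flt1, chr5:147726012-147726261, minus strand: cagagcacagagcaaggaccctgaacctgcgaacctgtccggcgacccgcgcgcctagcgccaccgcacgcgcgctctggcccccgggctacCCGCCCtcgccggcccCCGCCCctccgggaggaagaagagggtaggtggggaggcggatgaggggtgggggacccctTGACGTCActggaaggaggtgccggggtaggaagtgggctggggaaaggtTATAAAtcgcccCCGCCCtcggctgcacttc
Cxcr4, chr1:128592300-128592549, minus strand: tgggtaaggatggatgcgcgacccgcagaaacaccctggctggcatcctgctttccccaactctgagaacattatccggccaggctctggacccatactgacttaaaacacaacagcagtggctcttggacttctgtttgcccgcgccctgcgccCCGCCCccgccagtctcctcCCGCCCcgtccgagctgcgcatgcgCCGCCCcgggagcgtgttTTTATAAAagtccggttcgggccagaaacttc
Kdr, chr5:75978456-75978705, minus strand: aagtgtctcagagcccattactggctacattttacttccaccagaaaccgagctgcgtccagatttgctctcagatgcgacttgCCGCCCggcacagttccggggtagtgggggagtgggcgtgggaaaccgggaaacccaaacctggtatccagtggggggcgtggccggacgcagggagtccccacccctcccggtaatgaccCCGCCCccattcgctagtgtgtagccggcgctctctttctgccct
The Flt1 window held TGACGTCA at -81 to -74 from the start and TATAAA at -31 to -26. Mcam also held TGACGTCA, at -29 to -22; its letters are not printed because GENCODE places these bases inside the first exon of an Mcam transcript. Of 32851 RefSeq windows of the same length, 508 (1.55%) held this element on either strand. Cxcr4, Kdr and Tek had no match to it, and Thbd, the other gene that fell in the knock-down, was not in the table. GC boxes numbered 3 in Flt1, 5 in Mcam, 3 in Cxcr4 and 2 in Kdr, with none in Tek, and 32.7% of all windows held at least 1. Cxcr4 held TATAAA on both strands, as overlapping matches at -32 to -27 and -30 to -25, and 12.4% of all windows held that motif. GGAAG, a core bound by ETS-family factors, is not capitalised; on both strands it was found 3 times in Flt1, once in Kdr and in 64.1% of all windows, and not in Tek, Mcam or Cxcr4. The RefSeq gene spans of Flt1 and Kdr (GRCm38.p6) reach further upstream, to 147726438 and 75979072, so their printed windows lie inside an annotated span of the same gene. These are matches of letters and no measurement of binding. The motifs were chosen after these sequences were seen, so the shares of all windows are no test of a link with the knock-down.

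Flt1 encodes VEGF receptor 1 (GRCm38 chromosome 5, 147561604 to 147726011, minus strand, 30 exons) and was counted on NM_010228. It had 10.5 and 7.46 CPM in mESC, 48.4 and 68.3 in untreated Sca1 cells, 133 and 121 in NTC cells, and 15.4 and 18.0 in knock-down cells. No 2 groups overlapped: NTC was highest, then untreated, knock-down and mESC. Flt1 was 6.41-fold higher in untreated cells than in mESC (log2 2.68 ± 0.22 SE, adjusted p = 4.31e-08, edgeR). The knock-down was 7.51-fold lower than NTC (log2 -2.91 ± 0.19, adjusted p = 8.33e-09, edgeR), and lower than untreated cells as well (-1.77 ± 0.20, adjusted p = 1.07e-05). It remained above mESC (0.91 ± 0.25, adjusted p = 0.0107, edgeR). NTC cells were themselves 2.20-fold above untreated cells (1.14 ± 0.17, adjusted p = 0.00108, edgeR). The Flt1 counts behind these values were 34 to 565 per library.

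Kdr encodes VEGF receptor 2, the main signalling receptor (chromosome 5, 75932827 to 75978458, minus strand, 30 exons; NM_010612). Its levels were 1.60 and 4.39 CPM in mESC, 1.85 and 3.53 in untreated cells, 4.48 and 4.67 in NTC cells, and 5.24 and 3.95 in the knock-down, from 6 to 21 counts. Levels were low everywhere, and the knock-down and NTC ranges overlapped. The log2 difference between knock-down and NTC was -0.03 (95% interval -0.95 to 0.90), and that between untreated cells and mESC was -0.23 (-1.39 to 0.93). Differences inside these intervals were not detectable at this depth.

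Tek encodes the angiopoietin receptor Tie2 (chromosome 4, 94739289 to 94874976, plus strand, 23 exons; NM_013690). It was at 5.94 and 7.90 CPM in mESC, 3.08 and 1.32 in untreated cells, 4.72 and 6.67 in NTC cells, and 3.14 and 6.80 in the knock-down. The untreated libraries lay below the mESC libraries, and the knock-down libraries spanned the NTC values. Tek was lower in untreated cells than in mESC (log2 -1.56 ± 0.48, adjusted p = 0.0182, edgeR), on 3 and 10 counts in the untreated libraries. The call was lost without mESC replicate 2 (adjusted p = 0.0790, edgeR), without untreated replicate 2 (0.127) and with DESeq2 (0.0644), and without both libraries rich in 45S RNA the value was -0.92 (0.199). Without untreated replicate 1 it was -2.36. The knock-down differed from NTC by -0.12 (95% interval -0.96 to 0.72).

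Cdh5 encodes VE-cadherin, the adhesion molecule of endothelial junctions (chromosome 8, 104101625 to 104144511, plus strand, 12 exons; NM_009868). It had 18 and 15 counts in the mESC libraries, 5 and 3 in untreated cells, 5 and 9 in NTC cells, and 2 and 5 in the knock-down, or 0.699 to 4.11 CPM. The mESC libraries were the highest, and none of the 3 main comparisons passed: the log2 differences were -1.33 (95% interval -2.48 to -0.18) for untreated against mESC, -0.75 (-2.10 to 0.60) for knock-down against NTC and 0.14 for NTC against untreated cells. Cdh5 was lower in the knock-down than in mESC (-1.94 ± 0.55, adjusted p = 0.0145, edgeR), in a comparison in which 12.4% of all genes were called lower.

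Pecam1 encodes CD31, an adhesion molecule of endothelium, platelets and leukocytes (chromosome 11, 106654217 to 106750628, minus strand, 14 exons). Its transcripts NM_001032378 and NM_008816 carried identical counts in every library, and the first was used. Pecam1 was at 157 and 169 CPM in mESC, 45.3 and 43.2 in untreated cells, 81.8 and 84.9 in NTC cells, and 90.1 and 103 in the knock-down. No 2 groups overlapped, with mESC the highest and untreated cells the lowest. It was 3.67-fold lower in untreated cells than in mESC (log2 -1.88 ± 0.13, adjusted p = 9.77e-09, edgeR) and 1.88-fold higher in NTC than in untreated cells (0.91 ± 0.14, adjusted p = 0.00115). The knock-down was above NTC by 0.22 (95% interval -0.05 to 0.48, adjusted p = 0.291, edgeR), which did not pass. Against untreated cells the knock-down was higher (1.13 ± 0.14, adjusted p = 2.11e-05, edgeR).

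Esam encodes an adhesion molecule of endothelial tight junctions and platelets (chromosome 9, 37528078 to 37538319, plus strand, 7 exons; NM_027102). It followed the same order as Pecam1, with 17.8 and 17.1 CPM in mESC, 2.77 and 0.882 in untreated cells, 5.89 and 8.67 in NTC cells, and 11.9 and 11.8 in the knock-down. No 2 groups overlapped, although the untreated libraries held only 9 and 2 counts. Esam was 8.70-fold lower in untreated cells than in mESC (log2 -3.12 ± 0.39, adjusted p = 6.91e-06, edgeR). It was 3.65-fold higher in NTC than in untreated cells (1.87 ± 0.44, adjusted p = 0.0196, edgeR). That call was lost without untreated replicate 2 (adjusted p = 0.124, edgeR), NTC replicate 1 (0.0675), NTC replicate 2 (0.213), knock-down replicate 1 (0.0524) or knock-down replicate 2 (0.0526). DESeq2 gave no adjusted p for it. Without untreated replicate 1 the 2 values against that group were -4.26 and 3.01. The knock-down was above NTC by 0.70 ± 0.30 (adjusted p = 0.136, edgeR), and this passed with only those 2 groups in the fit (0.0251) or without both libraries rich in 45S RNA (0.0253). It was higher than untreated cells (2.56 ± 0.42, adjusted p = 3.66e-04, edgeR).

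Mcam encodes CD146, an adhesion molecule of endothelium, pericytes and smooth muscle (chromosome 9, 44134469 to 44142727, plus strand, 16 exons; NM_023061). It was at 156 and 163 CPM in mESC, 40.7 and 37.0 in untreated cells, 98.1 and 89.6 in NTC cells, and 26.2 and 28.5 in the knock-down. The groups were clear of each other in the order mESC, NTC, untreated, knock-down, and each neighbour in that order differed. Mcam was 4.08-fold lower in untreated cells than in mESC (log2 -2.03 ± 0.14, adjusted p = 5.16e-09, edgeR). NTC cells were 2.40-fold above untreated cells (1.26 ± 0.14, adjusted p = 9.33e-05, edgeR). The knock-down was 3.41-fold below NTC (-1.77 ± 0.14, adjusted p = 6.63e-08, edgeR) and 1.42-fold below untreated cells (-0.50 ± 0.16, adjusted p = 0.0357).

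Thbd encodes thrombomodulin, the endothelial receptor that turns thrombin towards activating protein C (chromosome 2, 148404466 to 148408188, minus strand, a single exon; NM_009378). It was at 1.83 and 2.20 CPM in mESC, 13.9 and 12.3 in untreated cells, 17.4 and 18.2 in NTC cells, and 1.75 and 3.07 in the knock-down. The knock-down libraries spanned the mESC values, and both lay below every untreated and NTC library. Thbd was 6.46-fold higher in untreated cells than in mESC (log2 2.69 ± 0.35, adjusted p = 1.10e-05, edgeR). It was 6.96-fold lower in the knock-down than in NTC (-2.80 ± 0.32, adjusted p = 7.05e-06, edgeR) and also lower than in untreated cells (-2.36 ± 0.35, adjusted p = 1.48e-04). Unlike Flt1, Thbd did not pass between NTC and untreated cells (0.44 ± 0.26, adjusted p = 0.360, edgeR); whether these 2 genes differ in that step was not tested. The knock-down differed from mESC by 0.33 (95% interval -0.62 to 1.27).

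Cxcr4 encodes the receptor for the chemokine CXCL12, which guides endothelial, blood and germ cells (chromosome 1, 128588199 to 128592293, minus strand, 2 exons; NM_009911). Its levels were 2.51 and 3.73 CPM in mESC, 9.87 and 7.05 in untreated cells, 14.4 and 14.5 in NTC cells, and 7.34 and 4.39 in the knock-down, from 11 to 65 counts. The knock-down libraries lay below both NTC libraries and overlapped the untreated ones. Cxcr4 was 2.74-fold higher in untreated cells than in mESC (log2 1.45 ± 0.38, adjusted p = 0.00588, edgeR), and the call was lost without untreated replicate 1 (0.0905). It was 2.55-fold lower in the knock-down than in NTC (-1.35 ± 0.31, adjusted p = 0.00646, edgeR). That call was lost without NTC replicate 1 (adjusted p = 0.0633, edgeR), NTC replicate 2 (0.0627) or knock-down replicate 2 (0.210), and with DESeq2 (0.0508). Against untreated cells the difference was -0.61 (adjusted p = 0.261, edgeR).

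**Figure D2:**
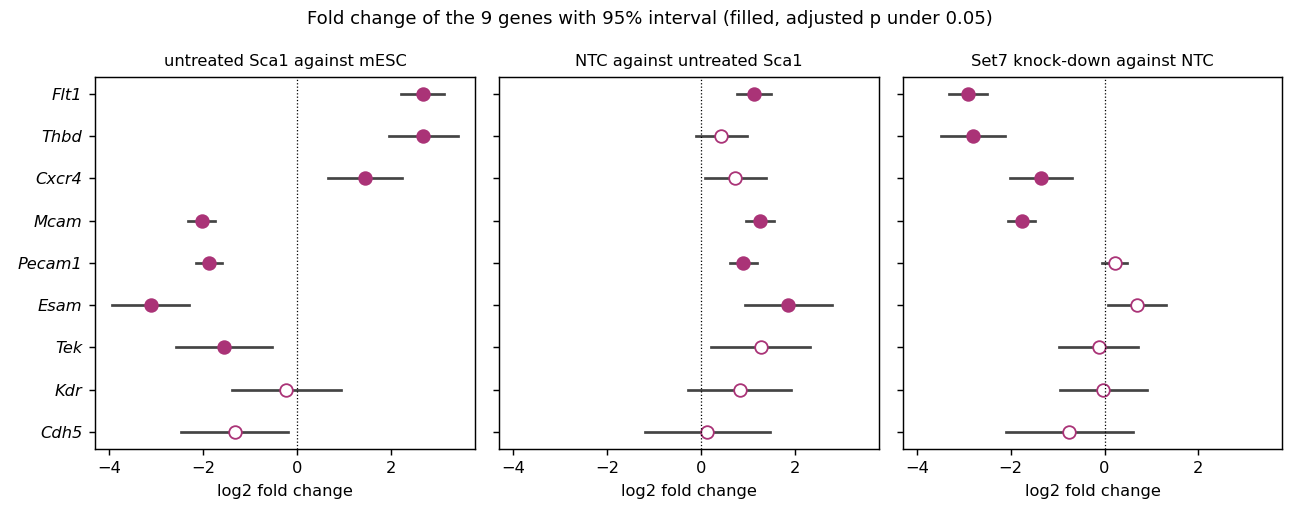
Log2 fold change of the 9 genes in the 3 main comparisons, with 95% intervals as horizontal lines; filled points have an adjusted p under 0.05 by edgeR. Flt1 and Thbd lie at 2.68 and 2.69 in untreated cells against mESC and at -2.91 and -2.80 in the knock-down against NTC, whereas Mcam is at -2.03 and -1.77.

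The order of the group levels took several forms among the 9 genes, as tests of all 6 pairs of groups showed. In the knock-down against mESC 1 of the 9 was higher (Flt1) and 3 were lower (Mcam, Pecam1, Cdh5), beside 25.9% of all genes called, 13.5% higher and 12.4% lower. In NTC against mESC 3 were higher (Flt1, Thbd, Cxcr4) and 3 lower (Pecam1, Esam, Mcam), beside 35.1% called, 19.6% higher and 15.5% lower. In the knock-down against untreated cells 2 were higher (Pecam1, Esam) and 3 lower (Flt1, Thbd, Mcam), beside 17.2% called, 7.34% higher and 9.89% lower. The libraries of these pairs did not overlap for 60.6%, 67.9% and 59.2% of all genes in turn. Flt1 and Mcam were the genes in which every neighbouring pair of levels differed. Thbd fell into a higher pair (NTC and untreated) and a lower pair (knock-down and mESC), with no difference called inside either pair. Pecam1 was highest in mESC and lowest in untreated cells, with knock-down and NTC between them and not called apart. For Esam the step from untreated cells to NTC passed, while the neighbours mESC, knock-down and NTC did not; mESC and NTC differed from each other (-1.25 ± 0.28, adjusted p = 0.00173, edgeR). For Cxcr4, Kdr, Tek and Cdh5 no neighbouring pair of levels passed the adjusted threshold. Some of these steps had a 95% interval that left out 0: for Cxcr4 NTC against untreated cells (0.74, adjusted p = 0.177, edgeR) and knock-down against mESC (0.84, interval 0.02 to 1.65), for Cdh5 NTC against mESC (-1.19, interval -2.20 to -0.19), and for Tek knock-down against untreated cells (1.16, interval 0.07 to 2.24).

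Per kilobase of transcript, which allows genes to be compared with each other, Mcam (53.3 CPM per kb) and Pecam1 (50.3) were the most abundant of the 9 in mESC, and Esam came next at 9.37. In untreated cells Pecam1 (13.7), Mcam (13.0) and Flt1 (8.46) led. In NTC cells the order was Mcam at 31.4, Pecam1 at 25.8 and Flt1 at 18.4 CPM per kb. In the knock-down Pecam1 led at 29.8, followed by Mcam at 9.15 and Esam at 6.36, with Flt1 at 2.42. Kdr, Tek and Cdh5 stayed between 0.225 and 1.49 CPM per kb in every group. Flt1 was above Kdr, the other VEGF receptor of the set, in all 4 groups: 1.30 against 0.506 CPM per kb in mESC, 8.46 against 0.454 in untreated cells, 18.4 against 0.772 in NTC cells and 2.42 against 0.776 in the knock-down.

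Across the 8 libraries, log2 CPM of Flt1 followed Thbd most closely among the 9 genes (Pearson r = 0.956), and Pecam1 followed Esam (r = 0.935). Flt1 and Kdr had r = 0.183. These values describe 8 libraries that share 4 groups, so they largely repeat the group differences. Among the genes averaging at least 5 CPM, those with the highest r were Timp3 (0.993) and Chst14 (0.992) for Flt1, Scara3 (0.993) and Prr33 (0.990) for Thbd, and Usp38 (0.992) and Nid1 (0.986) for Mcam. For Pecam1 they were Slc4a11 and Ctsa (both 0.994), for Esam Lrpap1 and Lime1 (both 0.988), and for Cxcr4 Sympk (0.985) and Chd3 (0.981). The low-count genes had Itpr1 (0.970) and Lsm5 (0.958) for Kdr, Zmym5 (0.978) and Dnajc22 (0.974) for Tek, and Otulinl (0.983) and Zmat4 (0.975) for Cdh5. Each was picked as a maximum over all such genes, and counting noise enters the values for the low-count genes.

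The genes that define endothelium most narrowly were near 0. Cdh5, Tek, Tie1, Erg, Emcn, Cldn5 and Vwf together summed to 15.8 and 18.2 CPM in mESC, 9.25 and 5.73 in untreated cells, 13.0 and 13.3 in NTC cells, and 11.2 and 16.2 in the knock-down. The ranges of mESC and the knock-down overlapped, and the untreated libraries were the lowest. Tie1, a partner of Tek, had 0 to 7 counts per library, the endothelial transcription factor Erg 0 to 9 and the sialomucin Emcn 0 to 4, and none of these passed the filter; Emcn was at 0 in both mESC and both knock-down libraries. Of the 4 that were tested, Tek was lower in untreated cells than in mESC. In the knock-down against mESC 1 was higher and 1, Cdh5, lower, beside 13.5% and 12.4% of all genes. Against untreated cells the knock-down had 1 higher, beside 7.34% of all genes. Neither higher call was Tek or Cdh5. In the knock-down the adjusted p of these 4 against NTC was 0.226 for Cldn5, 0.503 for Cdh5, 0.660 for Vwf and 0.890 for Tek (edgeR). The name endothelial is kept here for the genes and not for the cells measured.

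Markers of other cells also differed between the groups, and not always in the direction of the 9 genes. Over all genes, 18.7% were called higher and 16.8% lower in untreated cells against mESC. In the knock-down the shares were 4.25% higher and 10.1% lower against NTC, and 13.5% and 12.4% against mESC. For NTC against untreated cells they were 3.88% and 1.1%. In untreated cells against mESC the median log2 fold change was 2.40 for pericyte and smooth muscle markers and -1.33 for the 9 genes. In the knock-down against NTC these medians were -1.48 and -0.75. The fibroblast list (10 genes, led by Col1a1, Col3a1 and Col1a2) summed to 221 to 246 CPM in mESC, 809 to 905 in untreated cells, 1921 to 1968 in NTC cells and 175 to 183 in the knock-down. In mESC this sum was almost all Pdgfra, at 227 and 204 CPM there and 101 and 104 in the knock-down, while Col1a1, Col1a2 and Col3a1 were at 0.220 to 1.60 CPM in mESC. Against mESC, the knock-down had 4 of the 7 tested genes higher and 1 lower, with a median log2 fold change of 3.21, although its sum was below that of mESC. Of its 7 tested genes, 6 were higher and 1 lower in untreated cells than in mESC, 6 were lower in the knock-down than in NTC, and 4 were higher in NTC than in untreated cells. The pericyte and smooth muscle list (12 genes, led by Acta2, Tagln and Notch3) summed to 133 to 134 CPM in mESC, 749 to 1059 in untreated cells, 823 to 836 in NTC cells and 269 to 282 in the knock-down. Of its 9 tested genes, 8 were higher and 1 lower in untreated cells than in mESC, and 7 were lower in the knock-down than in NTC. The pluripotency list (12 genes, led by Pou5f1 and Dppa5a), which like Pecam1 and Esam was highest in mESC, summed to 4139 to 4507 CPM there, 2494 to 2887 in untreated cells, 2647 to 2740 in NTC cells and 3393 to 3627 in the knock-down. Of its 12 genes, 9 were lower in untreated cells than in mESC, and 3 were higher in the knock-down than in NTC. Those not called in untreated cells against mESC were Pou5f1 (log2 -0.13, adjusted p = 0.540, edgeR), Nanog (-0.06, 0.764) and Utf1 (-0.23, 0.232). The trophoblast list (11 genes), named here because trophoblast makes Flt1, summed to 66.7 to 82.0 CPM in mESC, 191 to 201 in untreated cells, 195 to 202 in NTC cells and 248 to 252 in the knock-down, with Prl3d1 and Tpbpa at 0 throughout. In NTC cells most of this sum was Cdx2 and Tfap2c, at means of 76.0 and 79.3 CPM. The part of these cell types in the values of the 9 genes was not tested. The blood cell list summed to 20.3 to 55.3 CPM in all libraries, with Hba-x and Pf4 at 0 throughout and the leukocyte antigen Ptprc at 0 to 1 counts.

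**Figure D3:**
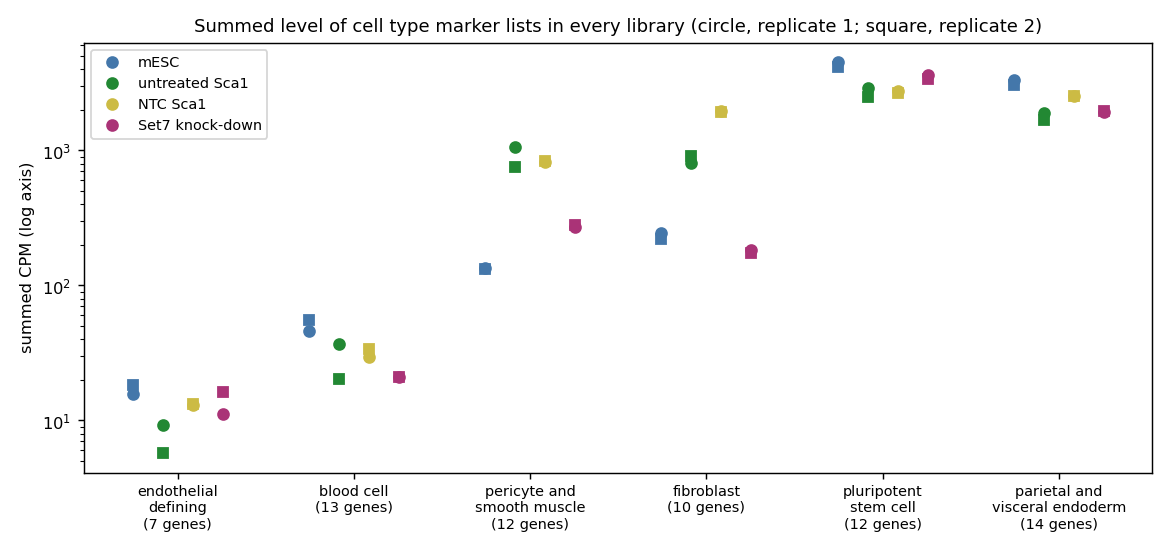
Summed CPM of 6 marker lists in every library, on a log axis; colours are the 4 groups, circles replicate 1 and squares replicate 2. The endothelial defining list lies between 5.73 and 18.2 CPM in all 8 libraries, while the fibroblast list runs from 175 CPM in the knock-down to 1968 in NTC cells.

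A wider list of 89 other endothelial and vascular genes, of which 69 were tested, places the 9 in their pathways. In untreated cells against mESC 30 of the 69 were higher and 17 lower, beside 18.7% and 16.8% over all genes. The median log2 fold change was 0.43, which was the same with genes at 0 in a group set to their bound. Among the VEGF ligands and co-receptors 4 were higher and 1 lower of 8. They included the placental growth factor gene Pgf, a ligand of Flt1 (3.51 ± 0.62), and the co-receptor Nrp1 (3.17 ± 0.28), while Vegfc, the lymphatic ligand, was lower (-1.49 ± 0.24). In the CXCL12 axis 2 were higher and 1 lower of 3: Cxcl12 itself was higher (4.00 ± 0.25), as was its receptor Cxcr4, and Dpp4, a peptidase that trims CXCL12, was lower (-1.25 ± 0.15). Of the coagulation and protein C genes 4 were higher and 3 lower of 10: Plau and Plat, the plasminogen activators, were higher (3.30 ± 0.43 and 2.33 ± 0.26), and Tfpi, an inhibitor of tissue factor, was lower (-1.68 ± 0.16). Of 4 angiopoietin, angiopoietin-like and Tie pathway genes 2 were higher, among them the angiopoietin-like gene Angptl2 (2.35 ± 0.38).

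Of the junction and surface genes 4 were higher and 7 lower of 18, beside the 18.7% and 16.8% over all genes. Icam1 (-1.99 ± 0.18), Jam2 (-1.82 ± 0.19) and Mmrn2 (-1.78 ± 0.18) fell. Vcam1, an adhesion receptor, had 0 counts in both mESC libraries and 27 in the untreated pair, at least 14.6-fold higher against a floor of 3 counts over the group. Of 11 genes in a mixed group of TGF-beta, S1P, Notch, ephrin and other pathways 6 were higher and 2 lower. Efnb2, an arterial ligand, was higher by 2.01 ± 0.25 and Eng, a TGF-beta co-receptor, was lower (-0.99 ± 0.16). Of 15 endothelial transcription factors 8 were higher and 3 lower, among them Nr2f2, a venous factor, at 5.27 ± 0.43, Lmo2 at 3.60 ± 0.37 and Gata2 at 2.40 ± 0.34.

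In the knock-down against NTC 25 of the 69 were lower and 3 higher, with a median of -0.44. Over all genes 10.1% were lower and 4.25% higher. VEGF ligands and co-receptors had 4 lower of 8: Nrp1 fell from 55.4 and 44.9 CPM in NTC to 4.54 and 5.92 (-3.22 ± 0.24), Nrp2 by 1.48 on the log2 scale, Pgf by -1.79 ± 0.40 and Vegfc by -1.20 ± 0.28. Of 4 angiopoietin, angiopoietin-like and Tie pathway genes 3 were lower. They were the angiopoietin-like gene Angptl2 (-2.45 ± 0.35), Angpt2 (-2.04 ± 0.50) and Angpt1, which had 4 and 0 counts in the knock-down libraries. Cxcl12 was lower (-1.59 ± 0.18) with its receptor Cxcr4, the 1 of 3 called in that axis. Of 10 coagulation genes 5 were lower and 1 higher. Plau (-2.52 ± 0.38), Plat (-2.28 ± 0.24) and F3, which encodes tissue factor (-1.43 ± 0.17), fell with Thbd, and Tfpi was higher (0.98 ± 0.16).

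Of 18 junction and surface genes 1 was lower and 1 higher in the knock-down, Vcam1 and Gja4, beside 10.1% and 4.25% over all genes. Vcam1 had 31 counts in the NTC libraries and 2 in the knock-down, a ratio of 13.2 (95% counting interval 3.35 to 114). Of 11 genes of the mixed group of TGF-beta, S1P, Notch, ephrin and other pathways 4 were lower: Unc5b (-1.54 ± 0.12), Ephb4 (-1.30 ± 0.15), Plxnd1 (-1.59 ± 0.27) and Aplnr. Of these, Ephb4 belongs to the named families, and Unc5b, Plxnd1 and Aplnr do not. Of 15 transcription factors 7 were lower and 1 higher, led by Nr2f2 (-3.82 ± 0.36), Epas1 (-1.92 ± 0.17), Foxc1 (-2.91 ± 0.48) and Elk3 (-1.24 ± 0.21). The higher one was Klf2, a factor induced by flow (0.44 ± 0.13), named after its value was seen; with library totals as the scaling its adjusted p was 0.164 (edgeR). Some of these calls were lost on leaving out a library. Without knock-down replicate 2 the adjusted p was 0.199 for Pgf, 0.112 for Vegfc, 0.0811 for Angpt1, 0.145 for Angpt2 and 0.101 for Vcam1 (edgeR); Pgf, Vegfc and Angpt2 were also lost without others, and Gja4, Aplnr and Klf2 on leaving out any single NTC or knock-down library. Of Pgf, Aplnr and Gja4 the calls were also lost with DESeq2 (0.0530, 0.164 and 0.134).

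In NTC against untreated cells 5 of the 69 were higher and 1 lower, with a median of 0.25. Over all genes 3.88% were higher and 1.1% lower. Nrp2 (1.17 ± 0.12), Unc5b (1.03 ± 0.11), Nrp1 (0.92 ± 0.20), Ackr3, a scavenger of CXCL12 (0.95 ± 0.26), and Dpp4 (0.84 ± 0.15) were higher, and Apln, the apelin gene, was lower (-2.02 ± 0.51). Calls of Nrp1, Ackr3, Dpp4 and Apln were lost on leaving out single libraries. Nrp2 and Unc5b kept their calls under each of these.

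**Figure D4:**
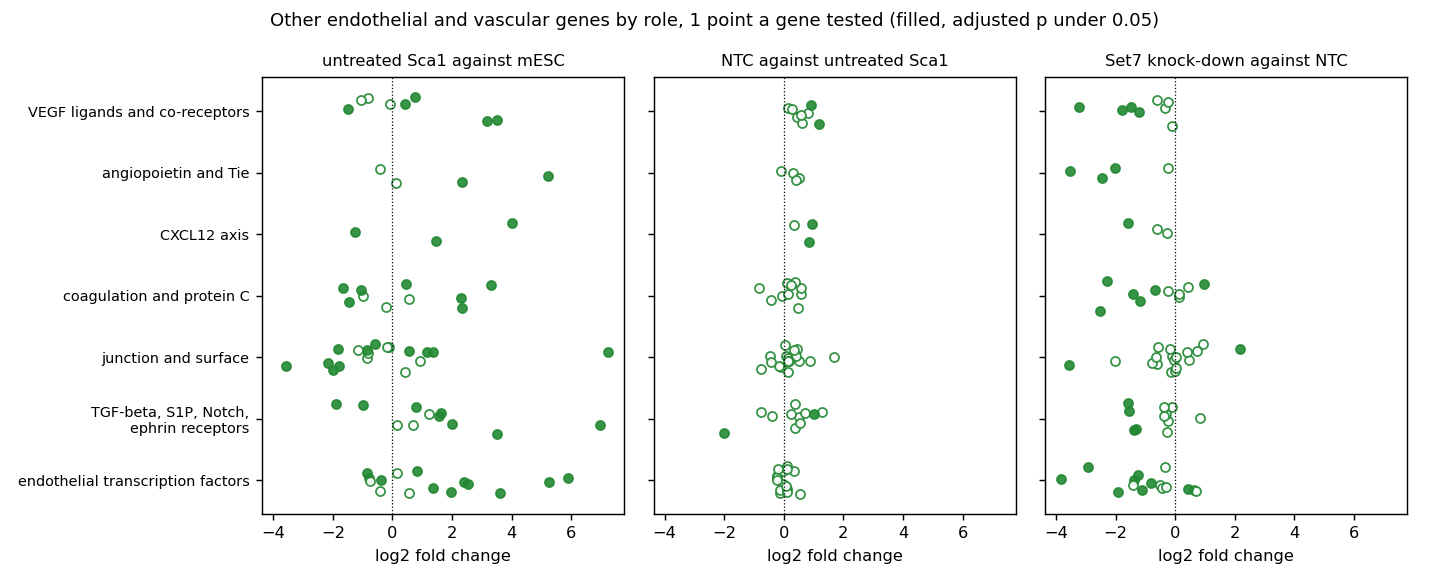
Log2 fold change of the 69 tested genes of the wider list by role, 1 point a gene, in the 3 main comparisons; filled points have an adjusted p under 0.05 by edgeR. In the knock-down 25 filled points lie below 0 and 3 above; Vcam1 and Aplnr had 0 counts in mESC, so their fitted values in the first panel are no measured folds.

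The shRNA against Set7 targets 21 bases of Setd7, and the longest run of these found in the transcripts of the 9 genes was counted. Esam had the longest, 11 bases, a length that 1.25% of 22412 genes reach. Flt1 had 10 bases, which 5.14% of genes reach. The run was 8 bases in Mcam, Pecam1, Tek and Cdh5, 7 in Thbd and Kdr, and 6 in Cxcr4. These are exact matches of letters, and whether the shRNA acted on any of the 9 genes was not tested.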

How the data were processed

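The 9 genes, the lists and the tests were chosen with earlier results of these data known. The deposited table holds whole-number counts per RefSeq transcript in 8 libraries; per the labels' protocols, these are poly(A) libraries read on a Genome Analyzer IIx. BWA 0.5.9, SAMtools 0.1.17 and edgeR 0.19 are named per the submitters' processing notes; for the counting tool, genome build and strand setting, nothing was stated in what was read here. Of 29614 transcripts, 28985 were named from the RefSeq table and 173 from GENCODE vM21, and 456 were not named. One row per gene was kept (23483 genes; 2507938 to 5080266 counts per library), and 13966 passed filterByExpr. All 4 groups were fitted together with edgeR 4.0.16 (R 4.3.3; TMM, robust quasi-likelihood, 4 residual degrees of freedom, Benjamini-Hochberg over all genes tested), after a test on simulated data. Alternatives included DESeq2 1.42.0, other scalings and filters, a replicate block and leaving out libraries. The text names all 9 genes, called genes of each role of the wider list by smallest p (up to 4), up to 4 abundant markers per cell type and the 2 genes most correlated with each of the 9. Motifs were chosen after the sequences were seen. Chromosome positions are GRCm38 gene spans and transcript lengths are those of GENCODE vM21. RefSeq lists long non-coding genes that overlap Kdr, Flt1 and Cdh5; reads of these could not be separated.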

Additional observations from a re-analysis of the deposited data

How the results depend on the processing

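The 9 genes' counts of calls stayed within 1.5 times under every setting tried: 6 to 7 in untreated cells against mESC, 3 to 5 in the knock-down and 3 to 4 in NTC cells. Over all settings, single values of the 9 genes kept direction and side of the threshold in 448 cases, lost the call in 15, gained it in 4 and changed sign in 11. The changes of sign were in low-count genes that were not called. Kdr in untreated cells against mESC ranged from -0.77 (without mESC replicate 1) to 0.67 (without mESC replicate 2) and was 0.22 without untreated replicate 1 or without both libraries rich in 45S RNA (chosen after seeing the data). Kdr in the knock-down was 0.0044 with DESeq2, 0.0093 without NTC replicate 2, -0.21 to 0.19 without knock-down replicate 1 or 2 and 0.80 with untreated cells as the control. Tek in the knock-down was 0.14 without NTC replicate 2, -0.85 to 0.25 without knock-down replicate 2 or 1, and 1.16 against untreated cells. Cdh5 in NTC against untreated cells was 0.46 without NTC replicate 1 and -0.29 without NTC replicate 2. The cause was not tested.

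Over all genes, knock-down against NTC gave 1997 calls, 1278 with DESeq2, 4414 with only those 2 groups, 4462 without the libraries rich in 45S RNA and 648 to 2826 on leaving out single libraries; the wider list gave 28, and 16 to 31 on leaving out libraries. NTC against untreated cells gave 696 calls, 1148 with no filter, 2384 without the libraries rich in 45S RNA and 57 to 1517 on leaving out libraries; the wider list gave 6, 15 without those libraries and 2 to 12 on leaving out each. Untreated against mESC gave 4963 calls, and 3777 to 5695 on leaving out libraries, with 39 to 47 of the wider list. With library totals as the only scaling, 18.4% of calls were higher in the knock-down (29.7% with TMM) and 96.5% in NTC against untreated cells (77.9%), where the median of all genes moved to 0.10.

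The descriptions carry a number shared across groups whose meaning is not labelled. Same-numbered libraries of mESC and untreated cells deviated together with a correlation of 0.26 and those of NTC and knock-down with 0.05 (13966 genes). The pairs are too few to show that the number pairs the libraries, and both libraries of number 56 are those rich in 45S RNA. With this replicate block NTC against untreated cells gave 1261 calls over all genes and 4 of the 9; no call of the 9 genes changed. Within a shared number the called differences of the 9 genes kept their sign, for example Flt1 at 2.15 and 3.11 in untreated cells against mESC, and at -3.07 and -2.71 in the knock-down.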

Other observations

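The endoderm list (14 genes) summed to 3074 to 3333 CPM in mESC, 1673 to 1890 in untreated cells, 2536 to 2549 in NTC cells and 1933 to 1945 in the knock-down. In untreated and NTC cells most of this sum was Sparc (means of 830 and 1006 CPM) and Lamb1 (628 and 957). Afp, Ttr and Apoa1 did not pass the filter on low counts. The early mesoderm list (10 genes) summed to 254 to 288 CPM in mESC, 229 to 288 in untreated cells, 305 to 311 in NTC cells and 232 to 246 in the knock-down. Most of its sum in mESC was Pdgfra, which the fibroblast list also holds. Of its 7 tested genes, 6 were higher and 1 (Pdgfra) lower in untreated cells than in mESC, beside 18.7% and 16.8% over all genes. The median log2 fold change of the tested genes was 3.60. The neural list (8 genes) summed to 121 to 124 CPM in mESC, 363 to 385 in untreated cells, 341 to 371 in NTC cells and 150 to 167 in the knock-down. Of its 6 tested genes 1 was higher and 4 were lower in the knock-down than in NTC, beside 4.25% and 10.1% over all genes.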
